A study of Homo sapiens with 8 samples.

Results

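The proteasome genes were described across knockdown of MEPCE, the enzyme that caps 7SK RNA, in derivatives of U2OS, a human osteosarcoma cell line. The genes were taken by symbol: every protein-coding row whose symbol is PSMA, PSMB, PSMC, PSMD, PSME, PSMF or PSMG followed only by digits, which gave 48 of the 80311 rows of the count table. Total RNA was sequenced in 8 libraries, 2 in each of 4 groups. The first pair of groups was U2OS-Flp-In-TREx cells (Flp-In from here on) given the control siRNA siNC or the siRNA siMePCE. The second pair was cells of the U2OS AiD-DiVA AsiSI-ER line (AsiSI from here on) given the same siRNAs. All cells received siRNA at 0 h and 48 h and were lysed at 96 h. AsiSI cells carry a restriction enzyme that 4-hydroxytamoxifen (4-OHT) brings into the nucleus to cut DNA, and the drug was added to them at 92 h, at 300 nM, for 4 h. The labels state no 4-OHT for Flp-In cells, so the line and the drug cannot be told apart. They do not say that replicates were separate cultures, so p-values measure the spread between these libraries, which may be technical.

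The proteasome degrades proteins tagged with ubiquitin. Its 20S core is a barrel of stacked rings of alpha (PSMA) and beta (PSMB) subunits, in which PSMB5, PSMB6 and PSMB7 carry the protein-cutting sites, and interferon can swap these for PSMB8, PSMB9 and PSMB10 to make the immunoproteasome. The 19S particle caps the barrel with a base, which holds the ATPases (PSMC) that unfold substrates, and a lid, in which PSMD14 removes ubiquitin. Chaperones (PSMG for the core, PSMD5, PSMD9 and PSMD10 for the base) assist assembly, the PSME proteins are alternative caps, and PSMF1 binds and inhibits the core.

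Library totals ran from 41431776 to 53695626 counts. Levels are CPM (counts scaled to library totals with TMM factors), and each gene was counted over its whole span with introns, so a CPM compares libraries for 1 gene. The targeted gene, MEPCE, read 39.9 and 40.1 CPM under siNC and 5.35 and 4.84 under siMePCE in Flp-In, and 29.3 in both siNC libraries and 3.65 and 2.30 under siMePCE in AsiSI. MEPCE was thus lower in all 4 libraries labelled siMePCE. The mesenchymal markers VIM (582 to 1299 CPM), SPARC (255 to 493), CD44 (220.2 to 352), RUNX2 (30.1 to 44.6), COL1A1 (23.5 to 113) and THY1 (8.67 to 37.6) were present and COL1A2 was near 0 (0.0479 to 0.811). Of the markers of other cell types, the keratins KRT8 (72.7 to 170.04) and KRT18 (55.5 to 88.1) were present. Low levels were read for the epithelial EPCAM (2.46 to 6.64) and CDH1 (2.13 to 6.59), the leukocyte marker PTPRC (1.07 to 7.50) and the endothelial CDH5 (0.466 to 1.89). HBB ran from 0 to 3.26, and CD3E and KRT19 stayed at or under 0.124 and 0.0405.

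The knockdown moved the 47 proteasome genes that passed the filter on low counts unevenly. PSMB11, the thymus-restricted catalytic subunit, did not pass, with 0 to 6 reads per library. In Flp-In, 6 genes rose and 21 fell at an adjusted p under 0.05, against 18.1% of all 43321 genes tested that rose and 22.8% that fell. In AsiSI, 1 rose and 21 fell, against 16.8% and 21.4% of all genes. With only genes of a mean CPM of at least 1, the rises became 13 in Flp-In and 6 in AsiSI. As shares of the 47, 12.8% rose and 44.7% fell in Flp-In, and 2.13% rose and 44.7% fell in AsiSI. Among the 17341 protein-coding genes tested, 20.6% rose and 34.3% fell in Flp-In, and 17.0% rose and 35.1% fell in AsiSI. The median log2 fold change of the proteasome genes was -0.10 in Flp-In and -0.26 in AsiSI, beside -0.10 and -0.14 for protein-coding genes. The median in Flp-In was therefore the same as that of coding genes to 2 decimals.

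The same 18 genes fell in both lines, 1 rose in both (PSMD14), and 17 were called in neither. A further 3 fell in Flp-In alone by this threshold (PSMB9, PSME2 and PSMA7), 3 in AsiSI alone (PSMD11, PSMB3 and PSMB2), and 5 rose in Flp-In alone (PSMF1, PSMB7, PSMA2, PSMD12 and PSMA6). The log2 fold changes of the 47 genes in the 2 lines had a Pearson r of 0.90 and a Spearman rho of 0.89 across genes, which are not independent replicates, and the 2 comparisons share no library. Sign was the same in 37 of 47. The agreement of other genes between the lines is not given here, so these values do not set proteasome genes apart. All 48 genes together took between 0.356% and 0.414% of counts under siNC, and less under siMePCE in all 4 libraries (0.323% to 0.335%). Mitochondrial transcripts rose instead, with 5.23% to 5.91% of counts under siNC and 8.24% to 10.6% under siMePCE. Leaving out the mitochondrial, 7SK, 7SL and ribosomal RNA rows changed no call on a proteasome gene in any of the comparisons. In RNA from whole cultures, fewer cells expressing a gene and less RNA per cell cannot be told apart.

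**Figure D1:**
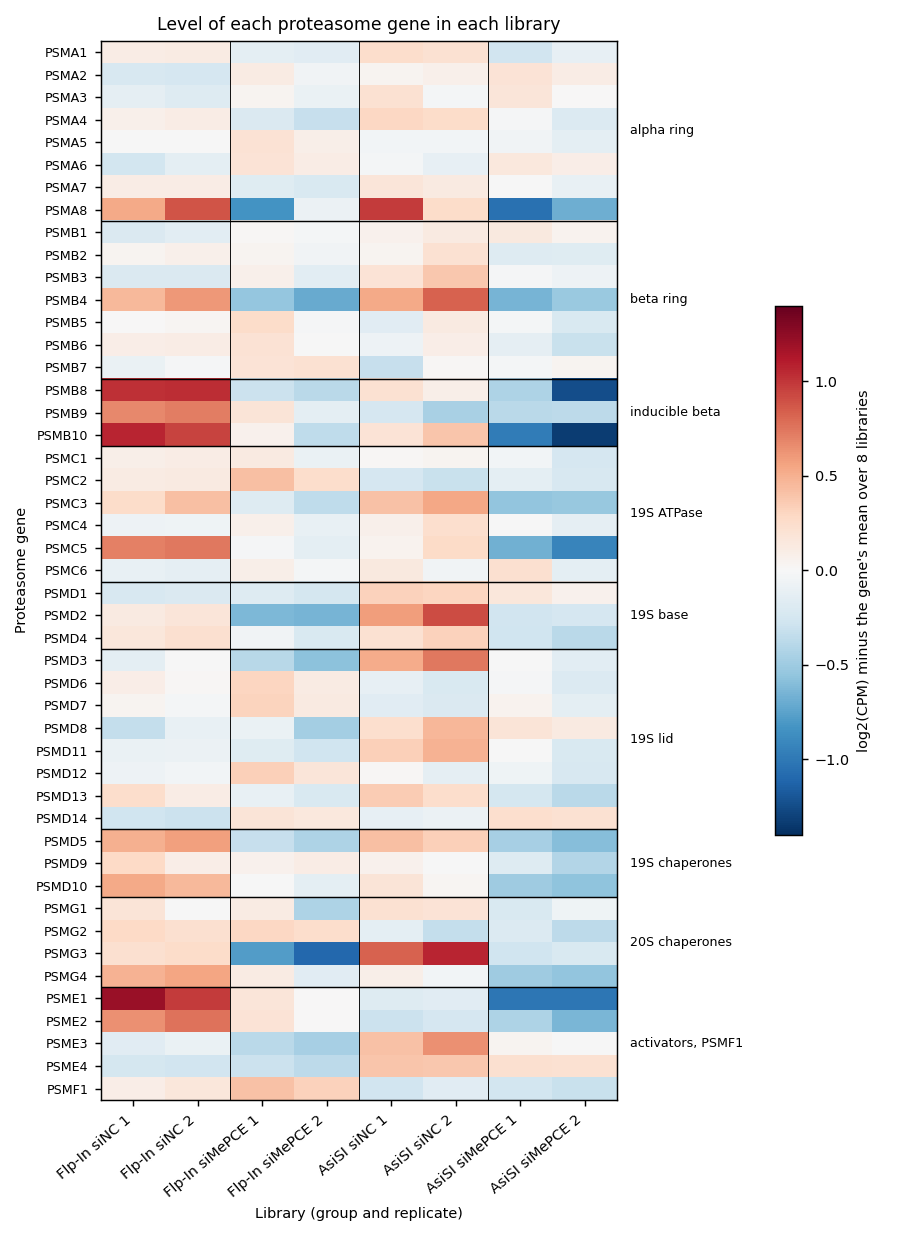
Level of each of the 47 tested proteasome genes (vertical, grouped by role) in each of the 8 libraries (horizontal), as log2 of CPM minus the mean of that gene over the 8 libraries, red above and blue below. PSMB4 goes from red to blue with siMePCE in both lines, PSME1, PSMB8 and PSMB9 are highest in the 2 Flp-In siNC libraries, and most standard core genes stay pale.

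**Figure D2:**
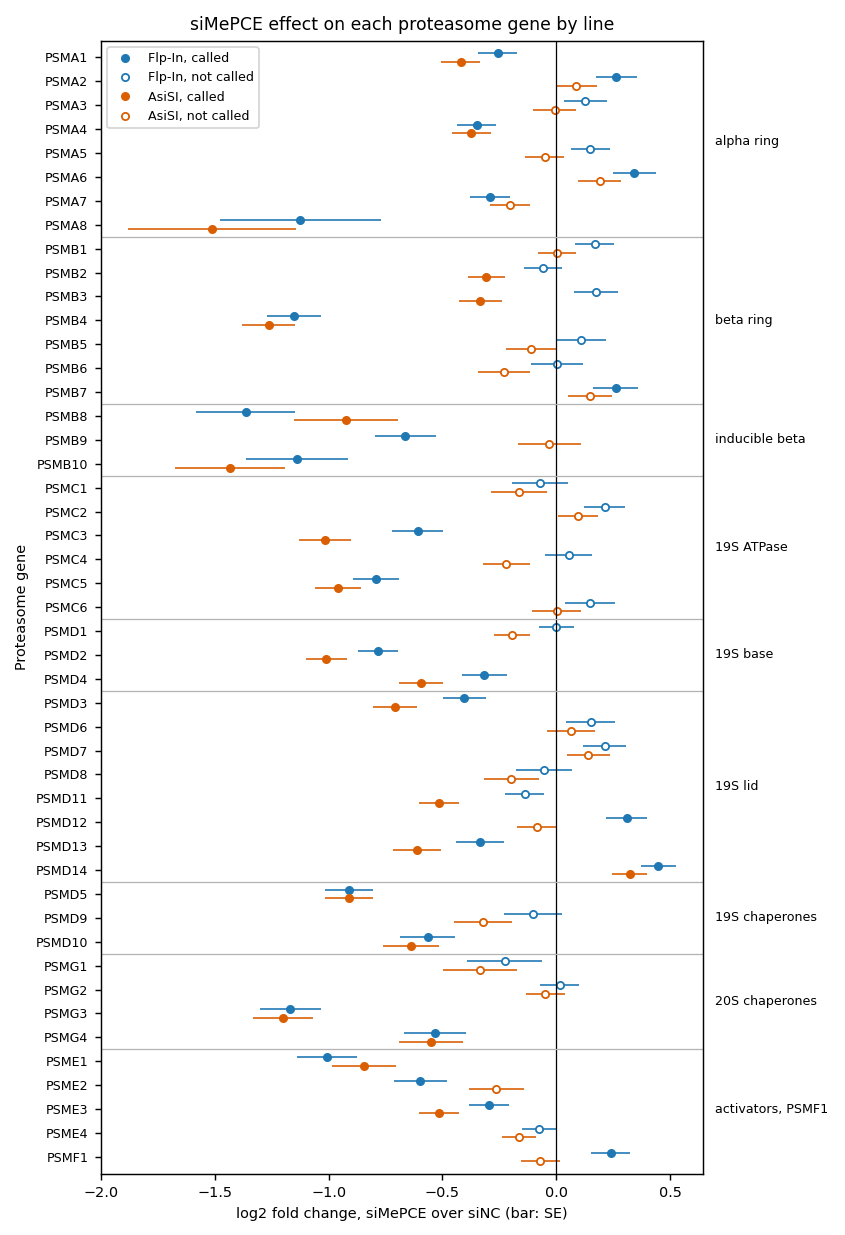
Log2 fold change of siMePCE over siNC for each proteasome gene (vertical, by role) in Flp-In (blue) and AsiSI (orange), with bars for the standard error, filled where the adjusted p was under 0.05. The 21 filled points left of 0 in each line include PSMB4 and PSMG3, whereas PSMD14 is the one gene filled to the right of 0 in both.

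Genes of the standard 20S core went in both directions. Of the 14 standard core genes (PSMA1 to PSMA7 and PSMB1 to PSMB7), 3 rose and 4 fell in Flp-In (median log2 fold change 0.12), and 0 rose and 5 fell in AsiSI (median -0.16). As shares, 21.4% rose and 28.6% fell in Flp-In, beside 20.6% and 34.3% of coding genes. In AsiSI 35.7% fell, beside 17.0% of coding genes that rose and 35.1% that fell. In AsiSI edgeR also gave 0 rises at an unadjusted p under 0.05, and DESeq2 called 0 higher and 5 lower. With only genes of a mean CPM of at least 1, however, 3 core genes rose in AsiSI (PSMA2, PSMA6 and PSMB7) and 3 fell, and without AsiSI siNC replicate 2, 1 rose (PSMB7) and 3 fell. Their summed level was 1099 ± 14.3 CPM (SD, n = 2) under siNC and 1096 ± 56.0 under siMePCE in Flp-In, and 1206 ± 33.0 and 1068 ± 29.9 in AsiSI. The sums overlapped between siRNAs in Flp-In and did not in AsiSI. Per kilobase of span, the 14 genes ranged from 0.741 to 18.7 CPM in Flp-In siNC cells, with PSMA1 lowest and PSMB4 highest.

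PSMB4, a non-catalytic beta subunit on the plus strand of chromosome 1 (hg19, chr1:151372036-151374413), fell most among these 14 in both lines. In Flp-In it read 42.1 and 46.7 CPM under siNC and 21.1 and 18.9 under siMePCE. In AsiSI the values were 44.4 and 54.6 under siNC and 19.7 and 21.5 under siMePCE. The groups stood apart in both lines, and the fall was 2.22-fold in Flp-In (log2 -1.15 ± 0.12 SE, adjusted p = 5.4e-08) and 2.40-fold in AsiSI (-1.26 ± 0.12, adjusted p = 1.4e-08). No other gene of the table overlaps PSMB4. The other beta genes of the standard core moved little: in Flp-In they lay between -0.06 and 0.26, and in AsiSI between -0.33 and 0.15.

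Among alpha genes, PSMA6 and PSMA2 rose in Flp-In. PSMA6 (chr14:35747839-35786699, plus strand) read 41.6 and 45.2 CPM under siNC and 56.6 and 53.5 under siMePCE in Flp-In, then 48.7 and 45.7 against 54.9 and 52.8 in AsiSI. Its change was 0.34 ± 0.10 (adjusted p = 0.0059) in Flp-In and 0.19 ± 0.09 (adjusted p = 0.12) in AsiSI, with groups apart in both lines. PSMA2 read 60.0 and 59.8 against 76.1 and 67.7 CPM in Flp-In, and 72.4 and 73.7 against 80.0 and 75.3 in AsiSI. PSMA2 changed by 0.26 ± 0.09 (adjusted p = 0.022) in Flp-In and by 0.09 ± 0.09 (adjusted p = 0.47) in AsiSI. Both genes share their counts with other rows: PSMA2 lies wholly inside a row of the same strand, and a row covering 99.95% of PSMA6 held 2.12 times its counts. PSMA1 and PSMA4 fell in both lines, by 0.26 and 0.35 on the log2 scale in Flp-In and by 0.42 and 0.37 in AsiSI, and PSMA7 fell by 0.29 in Flp-In. A row of the same strand overlaps 11.6% of PSMA1 with 1.11 times its counts.

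PSMA8, the alpha subunit of the testis, was scarce but its row fell in both lines. The row DHFRP1 on the opposite strand overlaps 0.94% of the PSMA8 span and held 0.51 times its counts. How much of the PSMA8 counts comes from there cannot be told. PSMA8 read 1.68 and 2.13 CPM under siNC against 0.649 and 1.10 under siMePCE in Flp-In, and 2.29 and 1.39 against 0.563 and 0.721 in AsiSI. Groups did not overlap, and the change was -1.12 ± 0.36 (adjusted p = 0.014) and -1.51 ± 0.37 (adjusted p = 0.0022). The call was lost in Flp-In without siNC replicate 2 or siMePCE replicate 1, and in AsiSI without siNC replicate 1.

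The 3 catalytic genes of the immunoproteasome fell in Flp-In while the 3 standard catalytic genes did not. PSMB8 (chr6:32808494-32812456, minus strand) read 8.18 and 8.28 CPM under siNC and 3.28 and 3.10 under siMePCE in Flp-In, and 4.67 and 4.28 against 3.0 and 1.71 in AsiSI. Both pairs of groups stood apart, with folds of 2.58 lower in Flp-In (log2 -1.37 ± 0.22, adjusted p = 2.4e-05) and 1.90 lower in AsiSI (-0.92 ± 0.23, adjusted p = 0.0024), and the AsiSI call was lost without AsiSI siMePCE replicate 2. PSMB10 (chr16:67968409-67970767, minus strand) read 6.04 and 5.55 against 3.0 and 2.25 CPM in Flp-In, and 3.29 and 3.76 against 1.46 and 1.15 in AsiSI. That is 2.20-fold lower in Flp-In (-1.14 ± 0.22, adjusted p = 0.00025) and 2.70-fold lower in AsiSI (-1.43 ± 0.24, adjusted p = 5.2e-05), again without overlap. PSMB9 (chr6:32811913-32828511, plus strand) read 24.2 and 24.8 against 17.1 and 13.8 CPM in Flp-In, and 12.9 and 11.1 against 11.6 and 11.8 in AsiSI. PSMB9 fell by 0.66 ± 0.13 in Flp-In (adjusted p = 0.00035) and stood at -0.03 ± 0.14 in AsiSI (adjusted p = 0.89), where the groups overlapped. The test of that difference gave 0.63 ± 0.19 with an adjusted p of 0.064, which missed the threshold. It was below 0.05 in 6 of 15 alternatives: DESeq2, the replicate block, no filter, a mean CPM of at least 1, and without Flp-In siMePCE 1 or AsiSI siNC 1. Over the 15, the adjusted p ran from 0.022 to 0.25.

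The standard partners behaved otherwise. PSMB5 read 54.0 and 55.2 against 64.5 and 53.3 CPM in Flp-In and 48.6 and 59.0 against 53.1 and 46.5 in AsiSI. PSMB6 read 29.6 and 29.9 against 31.9 and 27.7 in Flp-In and 26.4 and 29.6 against 25.4 and 22.3 in AsiSI. PSMB7 read 86.6 and 91.3 against 106 and 107 in Flp-In and 74.0 and 93.4 against 90.7 and 95 in AsiSI. Of these, PSMB7 rose in Flp-In (0.26 ± 0.10, adjusted p = 0.036), a call lost when any 1 of the 4 Flp-In libraries was left out, and the other values did not pass the test. PSMB8, PSMB9 and PSMB10 together made up 18.4% and 18% of the counts of the 6 catalytic genes in Flp-In siNC libraries and 10.4% and 9.24% under siMePCE. In AsiSI this share was 12.3% and 9.5% under siNC and 8.69% and 8.20% under siMePCE. The share was lower under siMePCE in both lines without overlap, and it is a share of counts over gene spans, not of molecules.

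**Figure D3:**
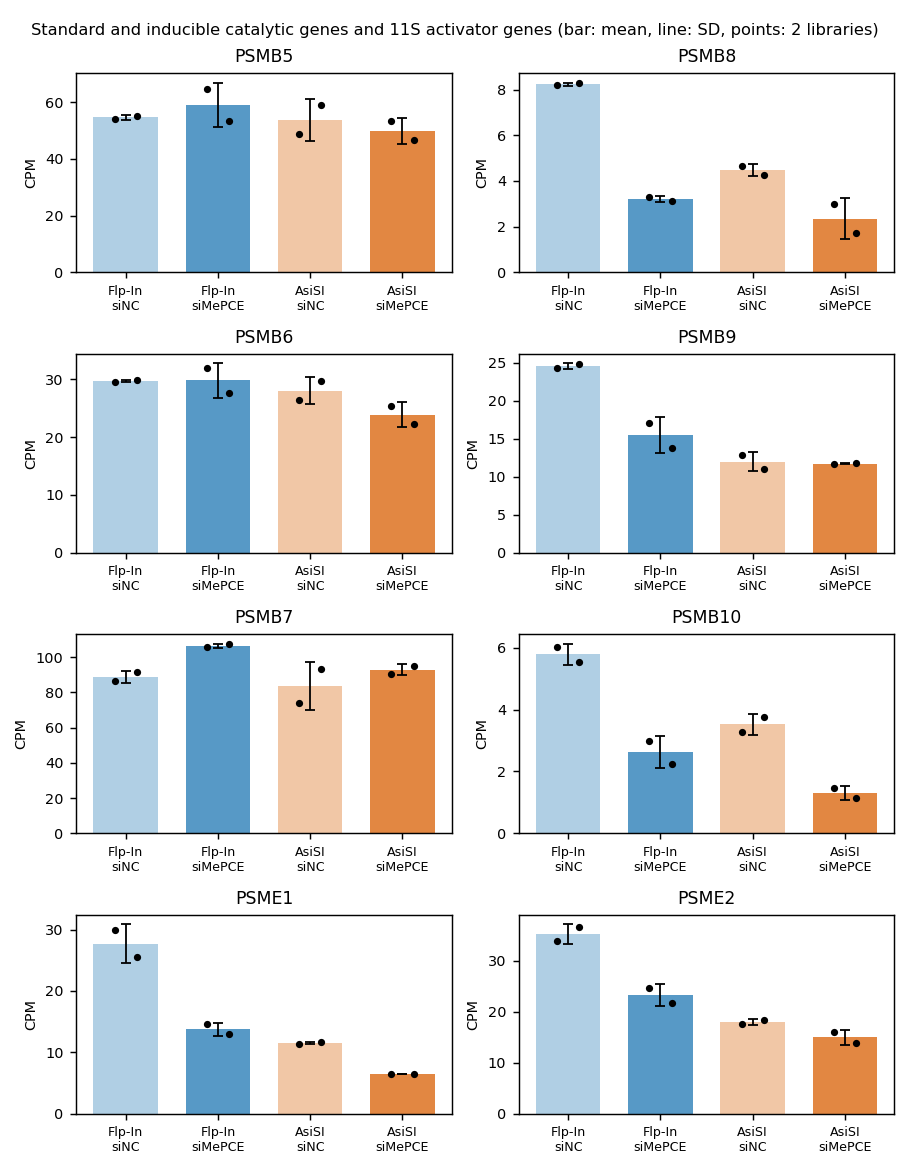
CPM of the standard catalytic genes PSMB5, PSMB6 and PSMB7, the inducible catalytic genes PSMB8, PSMB9 and PSMB10, and the activator genes PSME1 and PSME2 in the 4 groups. Bars are means with SD and points are the 2 libraries; PSMB8 goes from 8.18 and 8.28 to 3.28 and 3.10 CPM in Flp-In, whereas the PSMB5 points overlap between siRNAs in both lines.

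PSME1 and PSME2, the subunits of the 11S cap that interferon also raises, followed the inducible genes in Flp-In. PSME1 (chr14:24605372-24608176, plus strand) read 30.0 and 25.5 CPM under siNC and 14.5 and 13.0 under siMePCE in Flp-In, and 11.4 and 11.6 against 6.40 and 6.44 in AsiSI. It fell 2.01-fold (-1.01 ± 0.13, adjusted p = 1.8e-06) and 1.80-fold (-0.84 ± 0.14, adjusted p = 4.1e-05), with the groups apart. PSME2 (chr14:24612571-24616779, minus strand) read 33.8 and 36.6 against 24.8 and 21.8 CPM in Flp-In, and 17.6 and 18.4 against 16.1 and 14 in AsiSI. It fell by 0.60 ± 0.12 in Flp-In (adjusted p = 0.00030) and stood at -0.26 ± 0.12 in AsiSI (adjusted p = 0.094). Summed over PSMB8, PSMB9, PSMB10, PSME1 and PSME2, the level in Flp-In was 101 ± 1.06 CPM under siNC and 58.4 ± 6.16 under siMePCE, and in AsiSI 49.5 ± 0.491 and 36.8 ± 2.49 (SD, n = 2). Overlapping rows share in some of these counts: PSMB9 overlaps 13.7% of PSMB8 and held 3.50 times its counts, TAP1 overlaps 51.9% of PSMB9, and a row of the same strand overlaps 64.1% of PSMB10 with 1.68 times its counts.

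Promoter sequences were read for the 42 genes of the set found in the RefSeq promoter table (GRCh38.p14, 250 bases before to 50 after the start). Searched on both strands, the letters GAAA, then 2 bases of any kind, then GAAA again, a core of the interferon response element, occurred in 6 of these 42 promoters (14.3%) and in 3.65% of all 27305 promoters. The 6 genes were PSMA4, PSMB4, PSMB10, PSME1, PSME2 and PSMG4. All 6 fell in Flp-In and 5 in AsiSI (not PSME2), against 12 and 14 that fell of the 35 tested genes whose promoter lacked the letters. Among those 35 were the interferon-inducible PSMB8, which fell in both lines, and PSMB9, which fell in Flp-In. Over all coding genes tested that matched the table, 30.8% of those with the letters fell in Flp-In and 34.5% of those without, and 29.5% and 36.1% in AsiSI, so that genes with the letters fell no more often. The 5 matches upstream of the start are shown because these genes fell together, each as a stretch on the strand of the gene with the match in capitals; the PSME1 match lies after the start. The search was chosen after the values of these genes were seen, and a match is a description of the letters only.
PSMB10 (chr16:67936851-67936896, minus strand): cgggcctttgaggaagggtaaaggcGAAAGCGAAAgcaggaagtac
PSME2 (chr14:24146611-24146663, minus strand): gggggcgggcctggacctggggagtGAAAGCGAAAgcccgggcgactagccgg
PSMG4 (chr6:3258889-3258946, plus strand): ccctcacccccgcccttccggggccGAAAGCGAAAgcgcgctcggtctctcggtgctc
PSMB4 (chr1:151399480-151399539, plus strand): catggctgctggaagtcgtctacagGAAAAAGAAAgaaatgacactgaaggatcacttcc
PSMA4 (chr15:78540155-78540199, plus strand): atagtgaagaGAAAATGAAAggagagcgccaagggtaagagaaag
PSMB10, PSME2 and PSMG4 share the letters GAAAGCGAAA close to the start, whereas the PSMB4 and PSMA4 matches lie farther upstream with other middle letters. The letters TGANNNNGC, a core of the antioxidant response element to which NFE2L1 can bind, occurred in 26 of the 42 promoters (61.9%) and in 42.1% of all, and CCAAT in 19 (45.2%) and 35.7%. Of the 25 tested genes with TGANNNNGC, 10 fell in Flp-In and 10 in AsiSI, beside 8 and 9 of the 16 without it. Over all coding genes tested, 34.3% of those with these letters fell in Flp-In and 34.5% of those without, and 36.2% and 35.7% in AsiSI.

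In the 19S particle, 2 genes rose and 6 fell of 17 in Flp-In (median -0.05), and 1 rose and 7 fell in AsiSI (median -0.20). As shares, 11.8% rose and 35.3% fell in Flp-In, and 5.88% rose and 41.2% fell in AsiSI. Among coding genes 20.6% rose and 34.3% fell in Flp-In, and 17.0% rose and 35.1% fell in AsiSI. The share of falls in the particle was thus near that of coding genes. Among the ATPases, PSMC5 and PSMC3 fell in both lines and the other 4 were not called in either. PSMC5 read 103 and 106 against 62.7 and 57.7 CPM in Flp-In, and 65.7 and 76.4 against 39.7 and 33.4 in AsiSI. PSMC3 read 31.5 and 35.1 against 23.1 and 20.5 in Flp-In, and 34.9 and 38.1 against 17.9 and 18.2 in AsiSI. The falls, with no overlap between groups, were 1.73-fold and 1.94-fold for PSMC5 and 1.53-fold and 2.02-fold for PSMC3. FTSJ3 on the opposite strand overlaps 58.7% of PSMC5 and held 0.81 times its counts, whereas no other gene of the table overlaps PSMC3. PSMC2 stood at 0.21 ± 0.09 in Flp-In (adjusted p = 0.061) and 0.10 ± 0.09 in AsiSI (adjusted p = 0.43). Summed, the 6 ATPase genes read 334 ± 4.52 CPM under siNC and 298 ± 22.5 under siMePCE in Flp-In, and 297 ± 5.35 and 239.6 ± 21.9 in AsiSI.

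Of the non-ATPase genes of the base, PSMD2 and PSMD4 fell in both lines and PSMD1 in neither. PSMD2, a large scaffold of the base on chromosome 3 (chr3:184016986-184026838), read 383 and 397 against 228 and 225 CPM in Flp-In, and 526 and 663 against 292 and 298 in AsiSI. Its groups stood far apart, with falls of 1.72-fold (-0.78 ± 0.09, adjusted p = 2.6e-07) and 2.01-fold (-1.01 ± 0.09, adjusted p = 6.1e-09). PSMD4, a ubiquitin receptor, fell by 0.32 on the log2 scale in Flp-In and by 0.60 in AsiSI. PSMD1 stood at 0.00 ± 0.08 and -0.20 ± 0.08 (adjusted p = 0.053 in AsiSI).

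By the main filter on low counts, the lid held the one gene that rose in both lines. With only genes of a mean CPM of at least 1, PSMA2, PSMA6, PSMB7, PSMC2 and the lid gene PSMD7 were also called higher in both. PSMD14, the deubiquitinase of the lid (chr2:162164936-162268228, plus strand), read 140.4 and 138 CPM under siNC and 192 and 188 under siMePCE in Flp-In, and 157 and 160.3 against 199 and 197 in AsiSI. The 4 siMePCE libraries were all above the 4 siNC libraries, and the rise was 1.36-fold in Flp-In (0.45 ± 0.08, adjusted p = 5.9e-05) and 1.25-fold in AsiSI (0.32 ± 0.08, adjusted p = 0.0018). PSMD12 read 119 and 122 against 158 and 141 CPM in Flp-In, a rise of 0.31 ± 0.09 (adjusted p = 0.0076), and 127 and 115 against 121 and 108 in AsiSI, where the groups overlapped (-0.08 ± 0.09, adjusted p = 0.49). PSMD3 and PSMD13 fell in both lines, by 0.40 and 0.33 in Flp-In and by 0.71 and 0.61 in AsiSI, and PSMD11 fell by 0.52 in AsiSI. A row of the opposite strand overlaps 67.4% of PSMD3 with 0.80 times its counts. PSMD6, PSMD7 and PSMD8 were not called in either line by the main filter.

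Genes for assembly chaperones fell or were not called, and 0 of 7 rose in either line, at an unadjusted p under 0.05 in edgeR or by DESeq2 either. Of all genes tested 18.1% rose in Flp-In and 16.8% in AsiSI, so 0 of only 7 is near those shares. The 4 that fell were the same in both lines: PSMG3, PSMG4, PSMD5 and PSMD10. That is 57.1% in each line, beside 22.8% and 21.4% of all genes and 34.3% and 35.1% of coding genes. PSMG3, a chaperone of the core on chromosome 7 (chr7:1606968-1610641, minus strand), read 20.5 and 20.9 against 10.2 and 8.19 CPM in Flp-In, and 31.1 and 36.9 against 14.4 and 15.1 in AsiSI. The groups stood apart, with falls of 2.25-fold (-1.17 ± 0.13, adjusted p = 3.2e-07) and 2.30-fold (-1.20 ± 0.13, adjusted p = 1.4e-07). PSMD5 fell by 0.91 on the log2 scale in each line, PSMD10 by 0.56 and 0.64, and PSMG4 by 0.53 and 0.55. SLC22A23 overlaps 47.8% of PSMG4 with 1.08 times its counts, and a row of the opposite strand overlaps 66.0% of PSMD5 with 0.57 times its counts. PSMG2, PSMG1 and PSMD9 lay between -0.33 and 0.02 and were not called.

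Of the other caps, PSME3, the nuclear 11S activator, fell by 0.30 in Flp-In and by 0.51 in AsiSI, and PSME4, the PA200 activator, stood at -0.08 and -0.16 without passing the test. PSMF1 rose in Flp-In (0.24 ± 0.09, adjusted p = 0.031) and stood at -0.07 ± 0.09 in AsiSI (adjusted p = 0.57). 

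Some of these calls rested on single libraries. When replicate 1 of either siRNA was left out, the rises in Flp-In fell from 6 to 1, with PSMA2, PSMA6, PSMB7, PSMD12 and PSMF1 lost each time. Leaving out siNC replicate 2 of this line gave 3. PSMD14 was called whichever library was left out. Of the 21 falls in Flp-In, 18 remained called without siNC replicate 1 (PSMA1, PSMA7 and PSMD13 lost), 16 without siNC replicate 2 (PSMA1, PSMA7, PSMA8, PSMD4 and PSME3 lost), and 15 without siMePCE replicate 2 (PSMA1, PSMA7, PSMD13, PSMD4, PSME3 and PSMG4 lost). In AsiSI, leaving out a library lost PSMA8 (siNC 1), PSMB2 and PSMB3 (siNC 2) or PSMB8 (siMePCE 2). Whichever library was left out, 14 falls in Flp-In and 17 in AsiSI stayed called.

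The test of whether the knockdown acted differently in the 2 lines called 1 proteasome gene, lower in AsiSI, and 0 higher, against 1.81% and 2.6% of all genes. At an unadjusted p under 0.05, edgeR gave 7 lower and 1 higher, and DESeq2 called 3 lower and 1 higher (PSMB9). The gene was PSMB3, a non-catalytic beta subunit (chr17:36908994-36920478, plus strand). It read 59.0 in both siNC libraries and 71.6 and 61.4 CPM under siMePCE in Flp-In, and 77.7 and 88.3 against 67.0 and 64.8 in AsiSI. PSMB3 was above siNC in both Flp-In siMePCE libraries (0.17 ± 0.10, adjusted p = 0.16) and below it in both AsiSI siMePCE libraries (-0.33 ± 0.10, adjusted p = 0.0081). The difference was -0.51 ± 0.14 (adjusted p = 0.034), and the call was lost when any 1 of 5 libraries was left out (either Flp-In siNC library, Flp-In siMePCE 1, and replicate 2 of AsiSI under either siRNA). For 42 of the 47 genes (89.4%) the log2 fold change was lower in AsiSI than in Flp-In, beside 51.3% of all genes tested and 56.0% of coding genes. The 47 differences rest on the same 8 libraries, and their median was -0.15. The 5 genes with the opposite sign were PSMA7, PSMB8, PSMB9, PSME1 and PSME2, so 4 of the 5 interferon-inducible genes were among them.

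Averaged over both lines, 6 proteasome genes rose (12.8%) and 24 fell (51.1%), against 25.2% and 27.2% of all genes tested. The 6 were PSMD14 (0.39), PSMA6 (0.27), PSMB7 (0.20), PSMA2 (0.18), PSMD7 (0.18) and PSMC2 (0.15), of which PSMD14 and PSMA6 were called whichever library was left out. All 5 interferon-inducible genes fell in the average, from -0.35 for PSMB9 to -1.29 for PSMB10. The median over the 47 was -0.21, and 24.5% of coding genes rose and 40.8% fell in this comparison.

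Between the 2 lines under the control siRNA, with 4-OHT given to AsiSI cells, proteasome genes differed in both directions. Under siNC, 12 were higher (25.5%) and 11 lower (23.4%) in AsiSI than in Flp-In, with a median of 0.07. Of all genes tested 14.4% were higher and 15.2% lower, and of coding genes 17.9% and 23.5%. The share of lower calls was thus near that of coding genes. All 5 interferon-inducible genes were lower in AsiSI: PSME1 by 1.27 on the log2 scale (± 0.13, adjusted p = 1.2e-07), PSMB9 by 1.04 (± 0.14, adjusted p = 3.0e-06), PSME2 by 0.97 (± 0.12, adjusted p = 1.3e-06), PSMB8 by 0.88 and PSMB10 by 0.71. PSME1 thus stood at 30.0 and 25.5 CPM in Flp-In and 11.4 and 11.6 in AsiSI. Of the 14 standard core genes 4 were higher (PSMB3, PSMA2, PSMB1 and PSMA3) and 0 lower, with 0 lower also at an unadjusted p under 0.05 in edgeR and by DESeq2. That is 28.6% higher, beside 17.9% of coding genes that were higher and 23.5% that were lower. The largest excesses were those of PSMG3 (0.71 ± 0.13, adjusted p = 0.00015), PSMD3 (0.70 ± 0.09, adjusted p = 4.3e-06) and PSME3 (0.65 ± 0.09, adjusted p = 3.9e-06). PSMD3 read 97.1 and 106 CPM in Flp-In and 153 and 177 in AsiSI, and 81.6 and 71.9 against 106 and 96.2 under siMePCE. PSME3 read 122 and 128 in Flp-In and 181 and 213 in AsiSI, and 105 and 98.9 against 139.9 and 136 under siMePCE. Both genes were higher in AsiSI libraries than in Flp-In libraries under either siRNA, without overlap. The row on the opposite strand of PSMD3 may share in its counts here too. Of the 23 calls, 16 stayed whichever library was left out. Lost were PSMA2 and PSMA3 (Flp-In siNC 1 or 2), PSMB1 (Flp-In siNC 1 or AsiSI siNC 2), PSMB10 (Flp-In siNC 1 or 2 or AsiSI siNC 1), PSMD10 and PSMG4 (Flp-In siNC 1 or 2 or AsiSI siNC 2) and PSMF1 (Flp-In siNC 2 or AsiSI siNC 1), and PSMA3 also without either Flp-In siMePCE library or AsiSI siNC 1. The knockdown comparisons use the same siNC libraries.

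**Figure D4:**
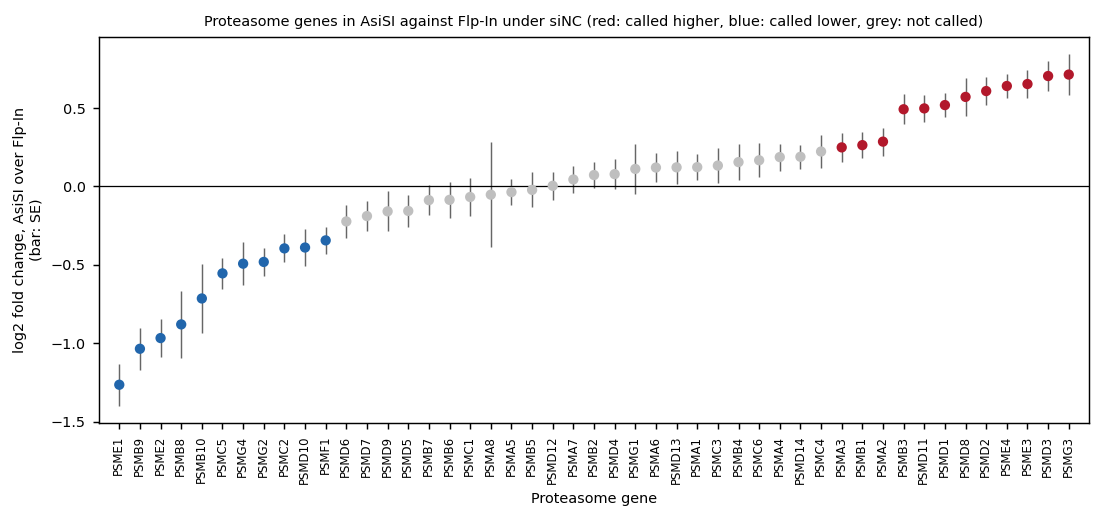
Log2 fold change of AsiSI over Flp-In under siNC for each of the 47 proteasome genes, ordered by value, with bars for the standard error; red points were called higher (12), blue points lower (11) and grey points not called (24). PSME1, PSMB9, PSME2, PSMB8 and PSMB10 are the 5 lowest, from -1.27 to -0.71.

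Proteasome genes of short span fell most often. Spans ran from 1.85 kb (PSMB11) to 139 kb (PSMA1). Of the 15 tested genes under 10 kb, 11 fell and 0 rose in Flp-In (median -0.61), and 9 fell and 0 rose in AsiSI (median -0.84). Those falls include the interferon-inducible PSMB8, PSMB10 and PSME1 in both lines and PSME2 in Flp-In. As shares, 73.3% and 60.0% of these short genes fell, beside 41.7% and 40.6% of the 3166 coding genes of that span, of which 10.1% and 9.16% rose. At an unadjusted p under 0.05, edgeR gave 1 rise (PSMD7) in Flp-In and 0 in AsiSI, and DESeq2 called 0 in both. PSMD7, a lid subunit, was called higher in both lines with a mean CPM of at least 1, and in Flp-In also with the replicate block and with only the 4 libraries compared. Of the 23 genes from 10 to 50 kb, 3 rose and 7 fell in Flp-In, and 0 rose (also at an unadjusted p and by DESeq2) and 9 fell in AsiSI. With a mean CPM of at least 1, 3 of them rose in AsiSI (PSMA2, PSMA6 and PSMC2) and 7 fell. By the main filter, 13% of the 23 rose and 30.4% fell in Flp-In, and 39.1% fell in AsiSI. Among coding genes of that span 17.5% rose and 35.7% fell in Flp-In, and 12.5% and 38.3% in AsiSI. Of the 9 genes of 50 kb or more, 3 rose and 3 fell in Flp-In (33.3% each), and 1 rose (11.1%) and 3 fell (33.3%) in AsiSI. Among coding genes of that span 29% rose and 29.2% fell in Flp-In, and 25.6% and 29% in AsiSI. Spearman's rho between span and log2 fold change was 0.48 in Flp-In and 0.44 in AsiSI over the 47 genes, and 0.61 and 0.59 over the 22 with no overlapping gene holding at least 0.1 times their counts. Among coding genes rho was 0.22 in both lines, and the median log2 fold change was higher in each longer class: -0.45, -0.15 and 0.04 in Flp-In, and -0.40, -0.20 and 0.00 in AsiSI. For proteasome genes the classes from 10 to 50 kb and of 50 kb or more did not follow that order, with medians of 0.05 and 0.00 in Flp-In and -0.16 for both in AsiSI. These correlations run across genes of the same libraries, and the part that introns, GC content or transcript length have in them was not tested. PSMA8, at 59.5 kb, lay far below the other long genes.

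**Figure D5:**
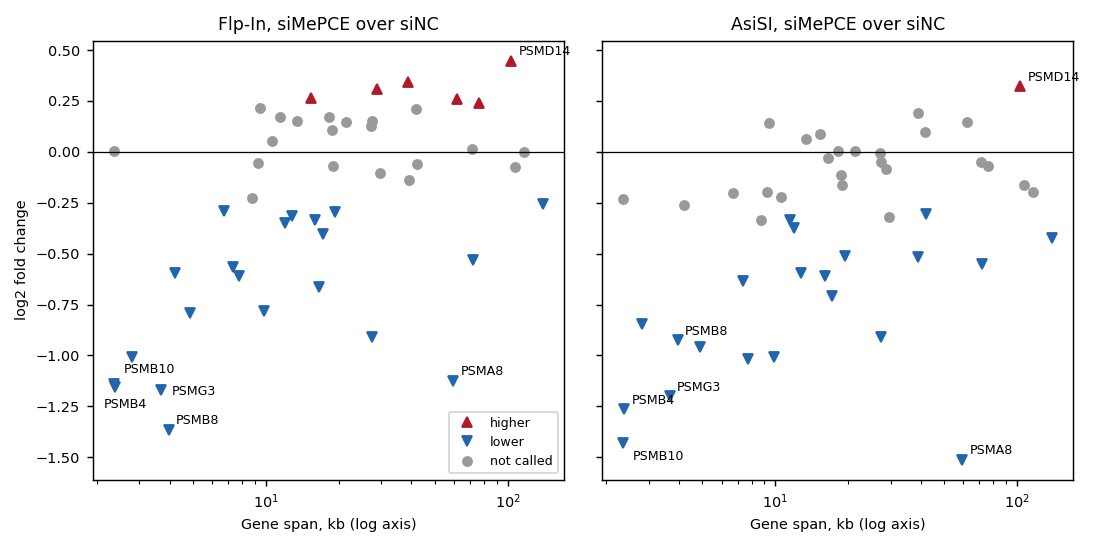
Log2 fold change of siMePCE over siNC (vertical) against gene span in kb (horizontal, log axis) for the 47 proteasome genes in Flp-In (left) and AsiSI (right); red triangles rose, blue triangles fell and grey circles were not called. Of the 15 genes under 10 kb, 11 fell in Flp-In and 9 in AsiSI and 0 rose, while PSMD14, with 103 kb, rose in both.

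Proteasome components whose symbols fall outside the rule moved in both directions. Of 11, 3 rose (27.3%) and 6 fell (54.5%) in the average of both lines. In this average 25.2% of all genes tested rose and 27.2% fell, and of coding genes 24.5% and 40.8%. POMP, which matures the core, read 38.9 and 42.1 against 66.7 and 63.1 CPM in Flp-In and 46.6 and 51.0 against 67.5 and 67.1 in AsiSI. SEM1, a small lid subunit, and TXNL1, a thioredoxin bound to the 19S particle, also rose. Their averages were 0.57 ± 0.07 for POMP, 0.62 ± 0.06 for SEM1 and 0.66 ± 0.06 for TXNL1, each called in both lines. PAAF1, which binds the ATPases, and PSME3IP1, a partner of PSME3, fell by 0.99 and 0.88. In the average, POMP and the 5 interferon-inducible genes moved in opposite directions. Of 9 genes that control proteasome transcription, 3 rose (33.3%) and 3 fell (33.3%) in the average. NFE2L1, the factor that raises proteasome genes when the proteasome is blocked, stood at -0.17 ± 0.09 in Flp-In (adjusted p = 0.14) and fell by 0.23 ± 0.09 in AsiSI (adjusted p = 0.048). DDI2, the protease that activates it, stood at 0.14 ± 0.10 (adjusted p = 0.25) and fell by 0.28 ± 0.10 (adjusted p = 0.028). The ubiquitin ligase genes BTRC and FBXW7 rose (0.56 and 0.50 in the average), and SYVN1 and VCP fell by 0.46 and 0.41. Of 15 ubiquitin and shuttle genes, 8 rose (53.3%) and 5 fell (33.3%) in the average. UBA1, a ubiquitin-activating enzyme, and NPLOC4, a partner of VCP, fell by 0.45 and 0.48 in the average. ZFAND5, whose counts cannot be told apart from those of the overlapping LINC01504, rose by 0.44.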

How the data were processed

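Total RNA was depleted of ribosomal RNA and made into strand-marking libraries, per the labels' protocols. Tools named in the submitters' processing notes are STAR, featureCounts, SAMtools, FastQC and Trim Galore, with the build hg19 and no versions. The file of raw counts per gene was deposited by the authors with coordinates. Length equals span in all 80311 rows, so introns were counted. Judging by the values, reads went to every overlapping gene on either strand (the setting is not given in the sources used here), so overlapping and antisense genes cannot be told apart: 17 proteasome genes overlap a gene holding at least 0.5 times their counts. A symbol was matched for 50.8% of rows, with gene types taken from GENCODE 29. No sample column was left unused.

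Replicate pairs differed beyond sampling noise (chi-square per degree of freedom 4.16 to 10.3), so none was a copy. The 43321 genes passing filterByExpr were scaled by TMM, and 4 group means over the 8 libraries were fitted with robust quasi-likelihood tests (edgeR 4.0.16, R 4.3.3). Adjusted p is Benjamini-Hochberg over all genes tested, with calls under 0.05. Standard errors were computed as the log2 fold change over the root of its F statistic. The fit was tested on simulated data. The interferon-inducible genes are PSMB8, PSMB9, PSMB10, PSME1 and PSME2.

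Alternatives were RLE size factors, leaving out mitochondrial, 7SK, 7SL and ribosomal RNA rows, a mean CPM of at least 1 or no filter, DESeq2 1.42.0, the replicate number as a block, only the 4 libraries compared, each library left out, only genes without an overlap of 0.1 of their counts, and, added after seeing the data, no robust estimate. Values in every library were given for genes called in the difference between lines, the 4 largest rises and falls per knockdown comparison, the 3 largest each way between lines, and the catalytic and interferon-inducible genes. Up to 4 genes per other list were named by adjusted p in the average, and MEPCE, NFE2L1, DDI2 and POMP always. A gene that this rule names and a marker gene are not reported here. PSMC3, PSMC5 and PSMD2 were added after their values were seen. The members, lists and motifs were chosen with earlier results of these data known. Promoters came from RefSeq (GRCh38.p14), whose coordinates were not joined to the hg19 table.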

Additional observations from a re-analysis of the deposited data

Results flagged for a closer look

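The effect of siMePCE on PSMB3 differed between the lines: the change in AsiSI minus that in Flp-In was -0.51 on the log2 scale (± 0.14 SE, edgeR adjusted p = 0.034). PSMB3 was above siNC in both Flp-In siMePCE libraries and below it in both AsiSI siMePCE libraries. The line and 4-OHT cannot be told apart, and the call was lost when Flp-In siNC 1 or 2, Flp-In siMePCE 1, AsiSI siNC 2 or AsiSI siMePCE 2 was left out.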

How the results depend on the processing

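With 2 libraries a group, calls near the threshold were limited by the spread between libraries. No called proteasome gene changed sign in any alternative run, and RLE scaling, leaving out abundant RNA rows and no robust estimate moved no count of calls by more than 1.5 times. Counts are higher calls unless stated.

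With a mean CPM of at least 1 as filter, calls were 13 in Flp-In, 6 in AsiSI, 13 in the average and 1 in the difference (2 lower), with medians of -0.015, -0.13 and -0.10. With no filter they were 3, 3 in the average and 1 in the difference. With only the 4 libraries compared (not applicable to the average and the difference) they were 11 in Flp-In. DESeq2 gave 1 higher and 3 lower in the difference. Among genes without an overlap of 0.1, lower calls were 8 in Flp-In, 10 in AsiSI, 11 in the average (2 higher, median -0.15) and 2 between lines under siNC (6 higher, median 0.14), and the median difference was -0.21; fewer genes were counted there.

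Replicate numbers shared by the groups were tried as a block. Deviations of libraries with the same number correlated by 0.0427 to 0.155, so no strong pairing was seen, and weak pairing remains possible. The replicate block gave 1 higher and 3 lower in the difference (PSMB9, PSMD11, PSMD12 gained) and lost no call elsewhere.

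Leaving out 1 library gave 1 to 7 higher in Flp-In (median -0.21 to -0.048), 1 to 2 in AsiSI (-0.32 to -0.18), 2 to 5 in the average, 0 to 1 in the difference (0 to 2 lower, -0.21 to -0.090) and 7 to 11 lower between lines.

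Signs of uncalled values turned for PSMB5, PSMB6, PSMB7, PSMB9, PSMB3 and DDI2. With a mean CPM of at least 1, PSMB5 and PSMB9 stood at 0.018 and 0.10 in AsiSI, and DDI2 and PSMB3 at 0.042 and 0.027 in the average. Leaving out 1 library gave in AsiSI -0.26 to 0.037 (PSMB5), -0.021 to 0.33 (PSMB7) and -0.14 to 0.071 (PSMB9), in Flp-In -0.048 to 0.24 (PSMB5) and -0.12 to 0.099 (PSMB6), and between lines -0.15 to 0.11 (PSMB5) and -0.24 to 0.071 (PSMB7). PSMB6 stood at -0.022 in Flp-In with no filter, and PSMB5 at 0.0031 between lines with only 4 libraries. The cause was not tested.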
